A study of Homo sapiens with 4 samples.

Results

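BACH1 peaks were examined around 4 genes of iron handling: FTH1 and FTL, the heavy and light chains of ferritin, SLC40A1, which encodes the iron exporter ferroportin, and TFRC, which encodes the transferrin receptor. Peaks were members when their summit, the highest point of the peak, fell within a window of 102 to 133 kb holding the gene. Of the 13661 peaks in both deposited lists, 8 met this rule, namely 5 of 10246 in Calu3 and 3 of 3415 in 16HBE14o-. Windows were set on hg19 at chromosome 11 from 61682 to 61785 kb for FTH1, chromosome 19 from 49418 to 49520 kb for FTL, chromosome 2 from 190375 to 190495 kb for SLC40A1 and chromosome 3 from 195726 to 195859 kb for TFRC. The edges of the windows were set by gene position alone, not by peak strength. The 4 genes themselves were chosen with earlier results of these data known.

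The study mapped binding of BACH1 by chromatin immunoprecipitation and sequencing (ChIP-seq) with a rabbit antibody against BACH1. Its samples were Calu3, a human lung adenocarcinoma line, and 16HBE14o-, an immortalised line of human bronchial epithelial cells, both grown in serum-supplemented DMEM, with no treatment or genetic change named in the labels. There were 2 replicates per line, 4 samples in all, and the labels do not say whether the replicates came from separate cultures. The authors combined the replicates of each line into 1 list of reproducible peaks, so no peak has a replicate spread, read depth is unknown, and no difference between the lines could be tested. Peak lists carry no expression values, so the identity of the lines was not checked against marker genes.

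BACH1 is a haem-binding transcription factor that pairs with small MAF proteins on antioxidant response elements and represses the genes there; haem releases it from DNA. Ferritin is a hollow shell of heavy and light chains in which cells store iron, and its heavy chain oxidises iron for storage. Iron enters most cells on transferrin through the transferrin receptor and leaves through ferroportin. Ferritin and transferrin receptor messages are also controlled after transcription by iron regulatory proteins, a step that ChIP-seq does not measure.

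The ferritin genes had BACH1 sites among the strongest of each list, in both lines and at nearly the same base. SLC40A1 had 3 weaker peaks in Calu3, none inside the gene and none shared, and no peak in the 16HBE14o- list. TFRC had no peak in its window in either list. A peak was thus listed at 3 of the 4 genes in Calu3 and at 2 of the 4 in 16HBE14o-. For comparison, consecutive windows of the same widths were laid along all chromosomes but Y. In Calu3 24.1% of windows of 103 kb (the FTH1 width), 23.9% of 102 kb (FTL), 26.9% of 120 kb (SLC40A1) and 29.0% of 133 kb (TFRC) held a summit. In 16HBE14o- these shares were 8.83%, 8.72%, 10.0% and 10.9%. On the gene's own chromosome a Calu3 summit fell in 21.7% of windows for FTH1, 25.6% for FTL, 28.8% for SLC40A1 and 47.0% for TFRC. A 16HBE14o- summit fell in 9.95%, 10.7%, 11.3% and 9.50% of them. The consecutive windows include stretches without genes, so they do not show how often a window centred on a gene holds a summit.

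**Figure D1:**
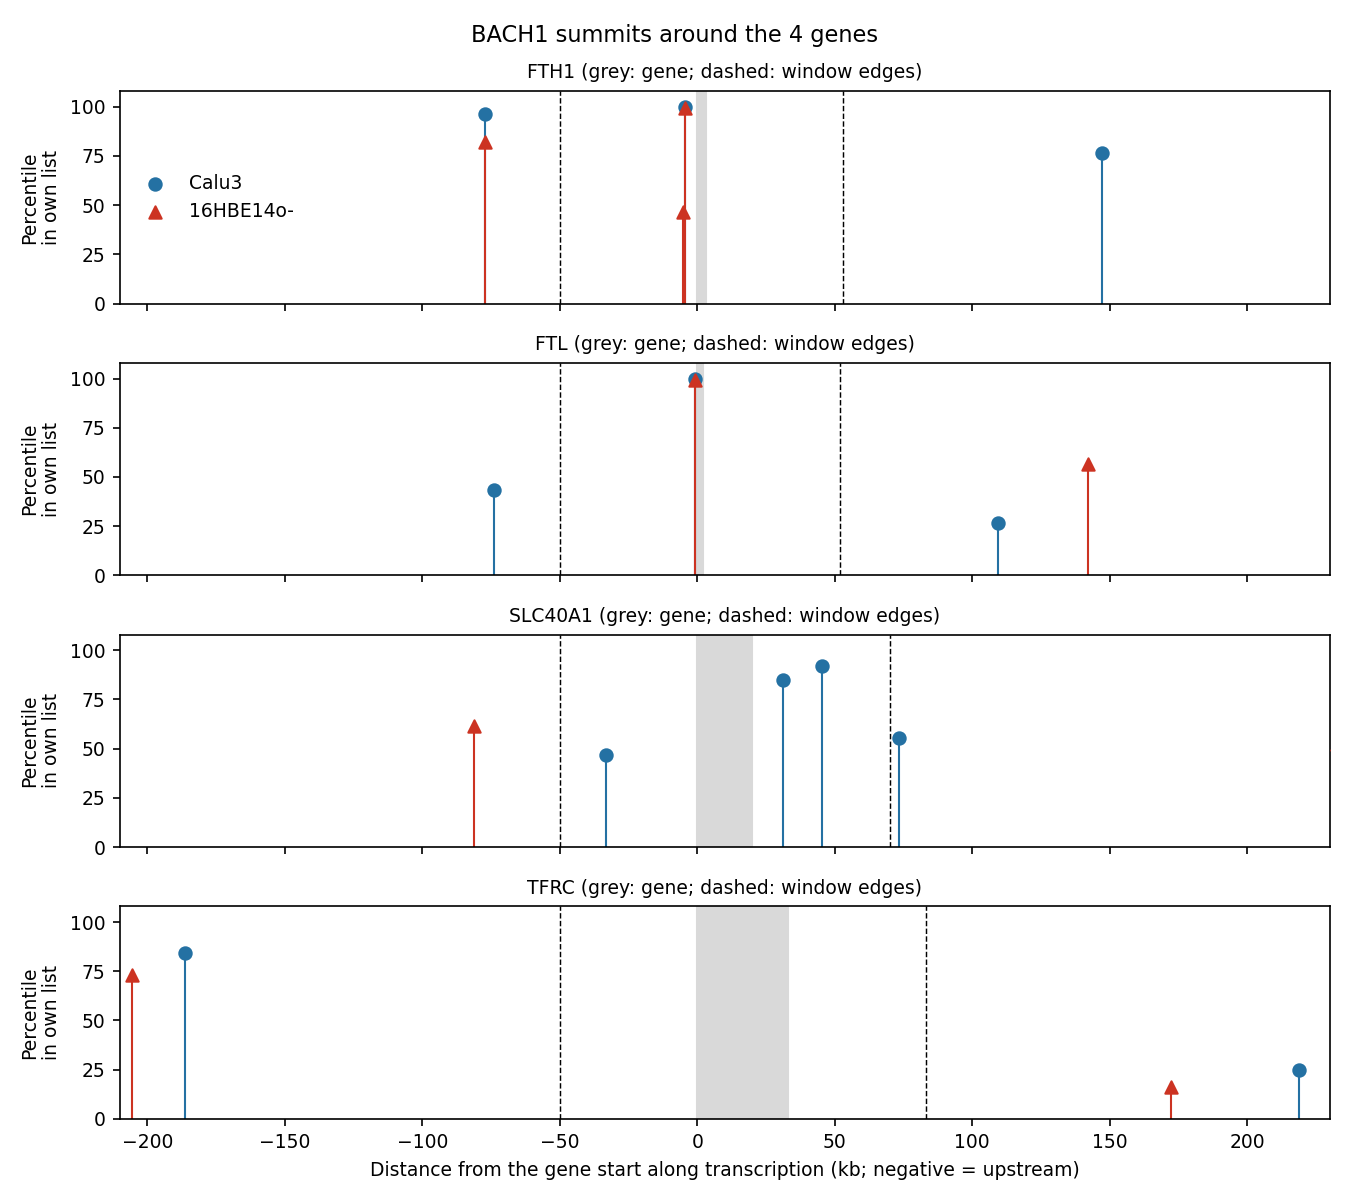
Summits around each gene, by distance from the gene start in kb (negative is upstream); the height is the percentile of peak strength within the peak's own list (100 is the strongest), circles are Calu3 and triangles 16HBE14o-. The nearest peak outside each window is drawn where it lies within the axis. The tallest stems stand upstream of FTH1 and close to the FTL start in both lists. Nothing is drawn between the dashed edges of the TFRC window.

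FTH1, the ferritin heavy chain gene, is transcribed from the minus strand, so that higher coordinates are upstream. In Calu3 its single peak ran from 61739244 to 61739922 with the summit at 61739514. This peak had a fold enrichment of 44.7, which was 10.8 times the list median of 4.13, and ranked 10 of 10246. In 16HBE14o- the strongest of its peaks ran from 61739422 to 61739591 with the summit at 61739524. It had a peak signal of 212 on that list's own, unstated scale, 7.06 times the list median of 30.1, and ranked 15 of 3415. Values of the lists are on different scales and are compared here only with the rest of their own list. Both summits lay 4.5 kb upstream of the gene start, with gene edges known to about 1 kb.

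By strength, the FTH1 site was number 3 of the 392 Calu3 peaks on chromosome 11 and number 2 of the 220 peaks of 16HBE14o- there. The nearest stronger peak was 4920 kb away in each list. The summits of the lines differed by 10 bp, against a median of 18 bp over the 1572 shared Calu3 peaks, of which 30.5% had summits within 10 bp. Such closeness was therefore common among shared peaks and is not particular to FTH1. In the GRCh38.p14 RefSeq annotation FTH1 overlaps BEST1, and the next protein-coding gene upstream is INCENP, so the window is not occupied by FTH1 alone.

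A further FTH1 peak was listed in 16HBE14o- alone, from 61740182 to 61740421 with the summit at 61740302, 5.3 kb upstream of the gene start. Its signal of 29.3 was close to the list median and ranked 1820 of 3415, and the stronger FTH1 peak had 7.25 times its signal. These 2 summits were separated by 778 bp, and 4.98% of the peaks of the list had another summit within 1 kb. Calu3 had no second peak there, and its FTH1 peak ended 259 bp before this one began. FTH1 was thus the only member gene with more than 1 peak in 16HBE14o-. At least 2 summits fell in 1.78% of windows of 103 kb in that list, and in 3.60% of those on chromosome 11.

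FTL, the ferritin light chain gene, had 1 peak in each list. In Calu3 it ran from 49466638 to 49467447 with the summit at 49467191, a fold enrichment of 29.0 (7.02 times the list median) and rank 49. In 16HBE14o- it ran from 49467140 to 49467240 with the summit at 49467194, a signal of 171 (5.70 times the list median) and rank 31. The summits of the lines differed by 3 bp at FTL, and 9.41% of the shared Calu3 peaks had summits within 3 bp. Ranked by deposited p instead of fold enrichment, the Calu3 peak moved from 49 to 29, while that of FTH1 moved from 10 to 12.

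The FTL site was the strongest of the 70 peaks of 16HBE14o- on chromosome 19 and number 2 of 225 in Calu3. Its summit lay 0.8 kb before the gene start, on the side of BAX, the next protein-coding gene upstream. This distance is within the error of about 1 kb of each gene edge. The 2 kb left of the window exceeds the RefSeq gene length of 1.57 kb. If that length holds on hg19, the start lies at a higher coordinate than both summits within this error. The site was then upstream of the start, by a distance that is not known exactly. FTH1 stood above FTL in both lists, by 1.54 times in fold enrichment in Calu3 and by 1.24 times in signal in 16HBE14o-. Without replicate values this order could not be tested.

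**Figure D2:**
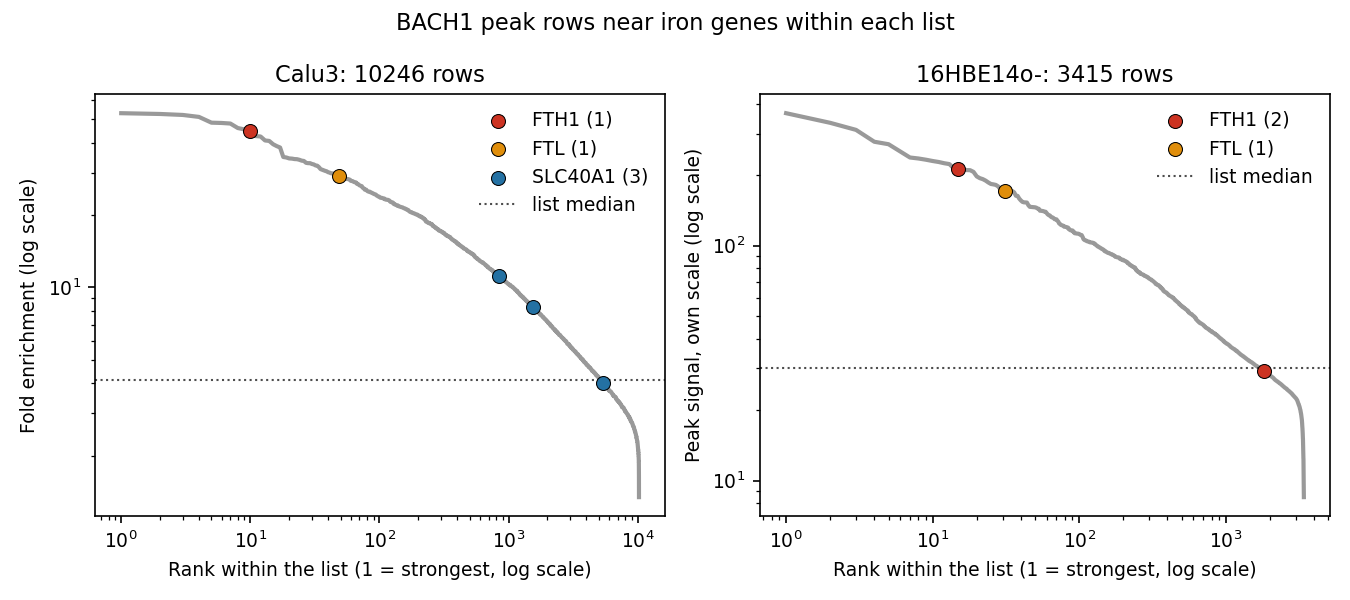
Peak strength against rank in each list, on log axes; the grey line is every peak of the list, coloured points are the peaks in the gene windows and the dotted line is the list median. FTH1 at ranks 10 and 15 and FTL at ranks 49 and 31 lie near the top, the SLC40A1 peaks lie at ranks 842 to 5434 in Calu3, and the weaker FTH1 peak of 16HBE14o- lies near the median.

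The ferritin peaks of the lines differed in width. The Calu3 peaks were 679 bp wide at FTH1 and 810 bp at FTL, against a list median of 235 bp. Those of 16HBE14o- were 170 and 101 bp wide, whereas 98.4% of that list was exactly 240 bp wide. Wide peaks in Calu3 and narrow peaks in 16HBE14o- were also usual among the 50 strongest of each list. The 50 strongest Calu3 peaks were 373 to 1113 bp wide (median 590), and 47 of the 50 strongest 16HBE14o- peaks were narrower than 240 bp. In Calu3 the summit of the FTL peak lay off centre, 553 bp from its lower end and 256 bp from its upper end.

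**Figure D3:**
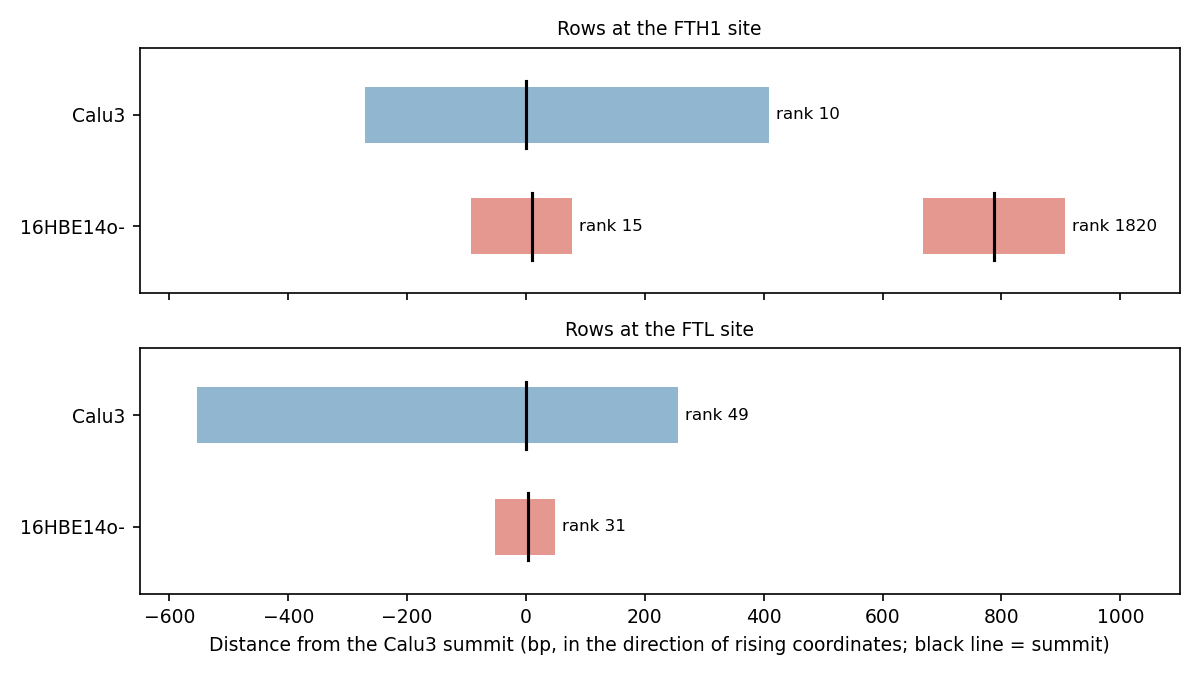
Extent of the peaks at the FTH1 and FTL sites in bp from the Calu3 summit, with a black line at each summit and the rank beside each bar. The narrow 16HBE14o- bars lie inside the wide Calu3 bars with summits 10 and 3 bp away, and the weaker FTH1 peak of 16HBE14o- lies 788 bp from the Calu3 summit, outside the Calu3 bar.

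SLC40A1, the ferroportin gene, is also read from the minus strand. Its Calu3 peaks had summits at 190399818, 190413934 and 190478056. The first (190399603 to 190399996) had a fold enrichment of 11.2, rank 842 and a position 25.2 kb beyond the end of the gene. The second (190413791 to 190414081) had a fold enrichment of 8.25, rank 1551 and a position 11.1 kb beyond the end. The third (190477950 to 190478148) had a fold enrichment of 4.002, rank 5434 and a position 33.1 kb upstream of the start. Only the first pair stood above the list median of 4.13, and FTL had 2.60 times the fold enrichment of the strongest of the 3.

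At least 3 Calu3 summits fell in 2.98% of windows of 120 kb, and in 2.67% of those on chromosome 2. The first pair of SLC40A1 summits were 14.1 kb apart, on the side of WDR75, the next protein-coding gene downstream. None of these peaks lay in the gene or within 10 kb of it, so the lists do not show which gene, if any, they act on. The nearest 16HBE14o- peak to the gene had its summit at 190526105, 81.1 kb upstream and 31.1 kb outside the window, on the side of ASNSD1. It had a signal of 33.8 and rank 1315, and it was 48.0 kb from the nearest Calu3 summit.

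TFRC, the transferrin receptor gene on the minus strand of chromosome 3, had no summit in its window in either list. In Calu3 the flanking summits were 195590066, 185.9 kb beyond the end of the gene (fold enrichment 3.17, rank 7681), and 195995259, 186.3 kb upstream of its start (fold enrichment 8.14, rank 1591). In 16HBE14o- they were 195636708, 139.3 kb beyond the end (signal 23.2, rank 2854), and 196014722, 205.7 kb upstream (signal 40.4, rank 914). The gene thus lay in a stretch without summits of 405 kb in Calu3 and 378 kb in 16HBE14o-.

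Empty windows were common on chromosome 3. Among windows of 133 kb there, 47.0% held a Calu3 summit and 9.50% a 16HBE14o- summit, so the remainder were empty like that of TFRC. Over all chromosomes but Y these shares were 29.0% and 10.9%, so in Calu3 empty windows were less common on chromosome 3 than over all. Of the 1387 gaps between neighbouring Calu3 summits on the chromosome, 115 (8.29%) were at least as long as that around TFRC, and together they made up 47.3% of the length between its first and last summits. For 16HBE14o- 69 of 200 gaps (34.5%) were as long as its own gap around TFRC. Together they made up 93.3% of the length between the first and last summits of that list. The median gap on the chromosome was 54.6 kb in Calu3 and 164 kb in 16HBE14o-. These values cover the whole chromosome, including stretches without genes. They do not show how often a window centred on a gene is empty, and the lists do not show binding below the authors' thresholds.

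To show the letters at the gene starts, the 250 bases before the annotated start are given for the 3 members with an entry in the RefSeq promoter table (build GRCh38.p14). FTL is the gene with strong peaks nearest its start, while SLC40A1 and TFRC had no peak at theirs. Positions in this build cannot be set against the hg19 positions of the peaks. Capitals mark TGAC, or GTCA on the opposite strand, the first letters of the antioxidant response element.
FTL (chr19:48965059-48965308, plus strand): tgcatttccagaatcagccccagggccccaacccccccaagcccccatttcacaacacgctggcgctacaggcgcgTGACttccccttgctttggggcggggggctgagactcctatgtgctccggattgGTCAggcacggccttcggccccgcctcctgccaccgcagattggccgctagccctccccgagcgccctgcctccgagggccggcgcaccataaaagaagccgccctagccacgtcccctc
SLC40A1 (chr2:189580787-189581036, minus strand): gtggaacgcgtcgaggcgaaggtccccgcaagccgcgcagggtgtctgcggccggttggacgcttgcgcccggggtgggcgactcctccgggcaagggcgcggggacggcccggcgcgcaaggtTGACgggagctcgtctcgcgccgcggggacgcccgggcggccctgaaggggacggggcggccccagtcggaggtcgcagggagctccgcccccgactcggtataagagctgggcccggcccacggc
TFRC (chr3:196082091-196082340, minus strand): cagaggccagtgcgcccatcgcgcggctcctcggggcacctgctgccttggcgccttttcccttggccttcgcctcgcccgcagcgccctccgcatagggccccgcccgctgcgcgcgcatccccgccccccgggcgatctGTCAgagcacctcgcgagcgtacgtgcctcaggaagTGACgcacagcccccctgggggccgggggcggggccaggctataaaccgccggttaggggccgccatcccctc

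No promoter among the 3 held the core element TGACNNNGC on either strand, which 10.9% of all 35116 promoters of this length held. Nor did they hold TGACTCAGC, a form within that core (0.456% of all promoters), or the AP-1 element TGACTCA that overlaps it (4.203% of all promoters). The short run TGAC, contained in all of these, occurred 2 times in FTL, 1 time in SLC40A1 and 2 times in TFRC, and 75.8% of all promoters held it. This says only that the longer elements are not spelled out in these windows. The SLC40A1 peaks lie outside the sequence printed here, and the place of the FTL peak relative to it is known only to about 1 kb.

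Of the 5 Calu3 peaks 2 overlapped a 16HBE14o- peak by at least 1 bp, those of FTH1 and FTL, against 15.3% of that whole list. Of the 3 peaks of 16HBE14o- 2 overlapped a Calu3 peak, the same pair of sites, against 46.4% of its list. Strong peaks were usually shared. All 10 Calu3 peaks at least as strong as that of FTH1 were shared, as were 48 of the 49 at least as strong as that of FTL. In 16HBE14o- all 31 peaks at least as strong as that of FTL were shared.

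The unshared members were spread over several deciles of strength. The strongest SLC40A1 peak was in the first decile of Calu3, as were those of FTH1 and FTL, and 53.5% (95% exact binomial interval 50.4 to 56.6) of that decile were shared. The second was in the second decile, with 28.5% (95% interval 25.7 to 31.4), and the third in the sixth, with 9.33% (95% interval 7.63 to 11.3). The weaker FTH1 peak of 16HBE14o- was in the sixth decile of its list, with 33.1% (95% interval 28.2 to 38.4), whereas the shared ferritin peaks of that list were in its first decile, with 93.3% (95% interval 90.1 to 95.7). These intervals cover counting error only, and peaks are not replicates. In Calu3 the first decile had the highest shared percentage, so no decile of that list had nearly all of its peaks shared. The weaker FTH1 peak of 16HBE14o- was outside the decile of its list where nearly all were shared.

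**Figure D4:**
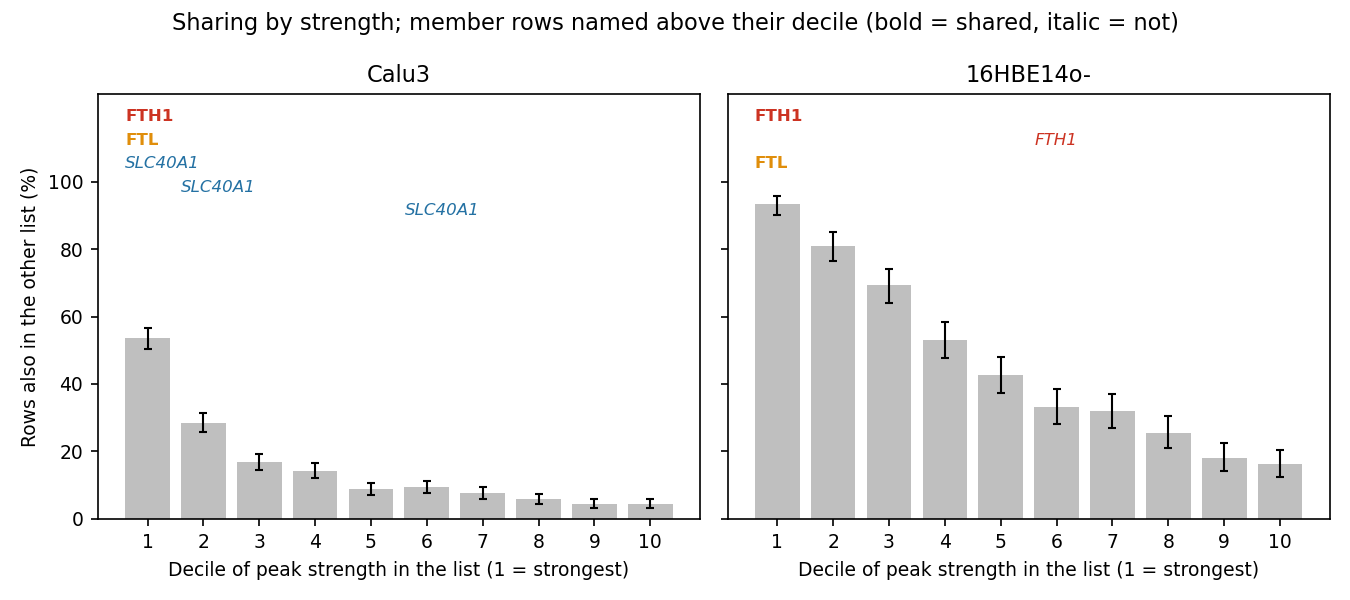
Percentage of peaks shared with the other list, by decile of strength (1 is the strongest); bars are all peaks of the list, whiskers are 95% exact binomial intervals, and the member peaks are named above their decile, bold when shared and italic when not. The bold names, FTH1 and FTL, stand in the first decile of each list, where 53.5% of Calu3 peaks and 93.3% of 16HBE14o- peaks were shared, and the italic names stand in the first, second and sixth deciles.

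All 5 Calu3 members had a deposited q under 0.05, as did 73.3% of the list. Their −log10 q was 209.5 at FTH1, 160.3 at FTL, and 32.8, 22.8 and 4.59 at SLC40A1 in the order given above. For 16HBE14o- no p was given. Its column in the place of q reached its maximum of 3.34 at both ferritin peaks, as at 1055 peaks of the list, and was 1.74 at the weaker FTH1 peak. That column therefore does not order FTH1 and FTL.

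The window edges set which peaks count. The closest peak left out was a Calu3 peak 3.5 kb outside the SLC40A1 window on its downstream side, with the summit at 190371527, rank 4567 and a fold enrichment of 4.46, and it had no partner in 16HBE14o-. The member nearest an edge was the SLC40A1 peak 33.1 kb upstream of the start, with a fold enrichment of 4.002. A site upstream of FTH1 was 27.3 kb outside its window and in both lists. Its summits were 61812261 in Calu3 (fold enrichment 15.8, rank 368) and 61812268 in 16HBE14o- (signal 49.9, rank 612), 7 bp apart and 77.3 kb from the FTH1 start. The first FTL peaks beyond each edge had Calu3 summits at 49394000, 74.0 kb upstream (fold enrichment 3.83), and 49577389, 107.4 kb beyond the gene end (fold enrichment 3.20). Those of 16HBE14o- were 49057284, 410.7 kb upstream (signal 26.6), and 49610014, 140.0 kb beyond the end (signal 32.0). On the downstream side of FTH1 the first summits were 61587828 in Calu3, 144.2 kb from the gene (fold enrichment 6.48), and 61348959 in 16HBE14o-, 383.0 kb from it (signal 29.6). At SLC40A1 the next Calu3 summit upstream was 191708769, 1263.8 kb from the start (fold enrichment 3.10), and the next 16HBE14o- summit downstream was 190212417, 212.6 kb beyond the end (signal 30.7).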

How the data were processed

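The members and the lists of motifs were chosen with earlier results of these data known. Each line was deposited as 1 peak list that passed the irreproducible discovery rate (IDR) step on its 2 replicates, per the labels, on hg19, per the submitters' processing notes. Aligner, peak caller, thresholds and any control were not stated in the labels or headers. The authors deposited for Calu3 a fold enrichment (ratio) of each peak, identified by the column layout, with the −log10 of its p-value and q-value and a browser score. In the 16HBE14o- list the authors gave a signal of unstated scale, a browser score and a further score. Other columns hold positions.

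Peaks were ranked within their list by fold enrichment or signal, with tied values given the best rank. Every peak in a window is named, with the first peak beyond each edge in each list. The windows equalled the gene plus 50 kb on each side in whole kb: less 100 kb they were 3, 2, 20 and 33 kb long, against RefSeq gene lengths of 3.35, 1.57, 20.2 and 32.81 kb. Gene edges were taken from the windows, with an error of about 1 kb. The strand came from the RefSeq promoter table, for FTH1 from general knowledge. Gene names and neighbours came from RefSeq on GRCh38.p14, whose gene coordinates were not used. Further iron genes and the sequence under the peaks needed an hg19 reference and were not analysed here. Positions are 1-based. Python 3.11.15, numpy 2.4.6, scipy 1.17.1, pandas 2.3.3 and matplotlib 3.10.9 were used, and the functions were tested on simulated data. Alternatives changed the window, the rank column, the overlap rule, the merging of peaks and the thresholds.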

Additional observations from a re-analysis of the deposited data

How the results depend on the processing

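Of 92 values recomputed under alternative settings, 76 stayed within 1.5 times the reported value (distances to a gene within 1 kb) and 16 did not. Widening each window by 50 kb on both sides raised the Calu3 counts to 2 at FTH1 and 3 at FTL and the 16HBE14o- count at SLC40A1 to 1. The wider windows also raised the count to 3 at FTH1 in 16HBE14o- and to 4 at SLC40A1 in Calu3, within the limit of 1.5 times. With windows 25 kb narrower on each side, 1 Calu3 peak was left at SLC40A1, and in the upper 50% of each list 1 FTH1 peak was left in 16HBE14o-. In that upper part 2 SLC40A1 peaks were left in Calu3, within the same limit. A reciprocal overlap of 50% left 0 shared member peaks in Calu3 and 0 in 16HBE14o-, because the paired peaks differ so much in width; summits within 100 or 500 bp gave the reported sharing. Measured between the middles of the peaks, the lines differed by 76.5 bp at FTH1 and 147.5 bp at FTL. TFRC had no summit under any window tried. The other 7 values that moved were ranks of ferritin peaks under other columns. In Calu3 the FTL peak moved from the top 0.478% to the top 0.283% of its list. In 16HBE14o- both ferritin sites were tied at the maximum, which 1055 peaks reached in the further score and 1615 in the browser score. Those columns therefore cannot show a place in the top 1% of that list. No paired analysis was possible because each list pools its replicates, which also prevents fits with a replicate block and the removal of single replicates. Depth is unknown, so a peak missing from a list was not detected and is not shown to be absent.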
